A study of Homo sapiens with 12 samples.

Results

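The 80 transcripts described here are the named long non-coding and antisense RNAs among 3281 genes that the authors listed as changed by lipopolysaccharide (LPS) in THP-1 cells. They were taken by name from the union of the authors' 2 tables, 1 per genotype: 32 identifiers starting with LINC, 5 microRNA host genes (starting with MIR and ending with HG), 41 ending in -AS1, -AS2 or -AS3, 1 ending in -IT1, and NEAT1. THP-1, a monocyte-like line from a human leukaemia, becomes macrophage-like when given the phorbol ester PMA. Cells carried NFKB1 either in its S80A form, with alanine in place of a serine in p50 (an NF-κB subunit), or as wild type (WT), and LPS, from the outer membrane of bacteria, acts through the receptor TLR4. The 12 libraries formed 4 groups of 3, namely S80A cells with LPS for 3 hr, WT cells with LPS for 3 hr, S80A cells at 0 hr and WT cells at 0 hr. All cells had PMA at 25 ng/ml for 72 hr and a rest of 4 days, and the LPS dose was 10 ng/ml. How the S80A cells were edited and whether they are 1 clone is not given in the sources used here, so the genotype cannot be told apart from the cell line that carries it. The labels do not say that replicates were separate cultures, and the spread that p-values are set against is that of these libraries, which may be technical.

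The label of long non-coding or antisense RNA held for most of the 80 in present annotation, and not for all. RefSeq calls 4 of them protein coding under a present symbol: LINC00094 (BRD3OS), LINC00854 (CCDC200), LINC00984 (INAFM2) and TNRC6C-AS1, which RefSeq gives as an older name of TMC6. In GENCODE release 29, 76 had a place on GRCh38, and 35 of these overlapped a protein-coding gene on the opposite strand. The library kit kept the strand, but the strand setting of the counting is not given in the sources used here, so reads of an overlapping RNA and of its partner cannot be told apart with certainty. TNRC6C-AS1, MIR600HG, LINC00843 and SEPSECS-AS1 also share exon bases with a coding gene on their own strand (TMC6 and STRBP for the first pair named).

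Long non-coding RNAs act in the nucleus and the cytoplasm as scaffolds, decoys or guides of proteins, and some serve mainly as the precursor from which a microRNA is cut. Many start from the promoter of a protein-coding gene in the opposite direction, or run across it as antisense RNAs, and are then often transcribed together with it. In macrophages several of them, MIR155HG best known, are induced within hours of TLR4 signalling through NF-κB and AP-1. A microRNA pairs with its targets mainly through its seed, bases 2 to 8.

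The 5 host genes carry the microRNAs by which they are best known, and the sequences show which of them share a seed. The seed is in capitals, sequences are from RefSeq on GRCh38.p14, and U stands as in RNA. MIR155HG on chromosome 21 holds miR-155, and MIR22HG on chromosome 17 and MIR600HG on chromosome 9 hold the microRNAs of their names. MIR17HG on chromosome 13 holds a cluster in which miR-17-5p and miR-20a-5p share 1 seed and miR-19a-3p and miR-19b-3p another. In MIRLET7BHG on chromosome 22, let-7a-5p and let-7b-5p share a seed. The libraries measured the poly(A) host transcripts and not the mature microRNAs.
hsa-miR-155-5p: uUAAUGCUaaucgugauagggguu
hsa-miR-22-3p: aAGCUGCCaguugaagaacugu
hsa-miR-600: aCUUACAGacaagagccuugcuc
hsa-miR-17-5p: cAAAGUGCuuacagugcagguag
hsa-miR-20a-5p: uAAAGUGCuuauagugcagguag
hsa-miR-18a-5p: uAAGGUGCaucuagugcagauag
hsa-miR-19a-3p: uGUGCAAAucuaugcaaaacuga
hsa-miR-19b-3p: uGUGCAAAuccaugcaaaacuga
hsa-miR-92a-3p: uAUUGCACuugucccggccugu
hsa-let-7a-5p: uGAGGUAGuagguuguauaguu
hsa-let-7b-5p: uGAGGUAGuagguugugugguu

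Expression is given as scaled reads, in which each library's reads are divided by a size factor of the authors. The 80 RNAs were low: their median level, as the mean over 12 libraries, was 49.9 scaled reads, against 246.6 over all 3281 listed genes, on a scale not corrected for length. Of the 80, 70 had a mean of at least 10 scaled reads and 21 of at least 100. Reads on listed genes ranged from 1924562 to 5789918 per library, which leaves out all other genes and is not the depth. S80A replicate 1 stood apart from the other S80A libraries at 3 hr: on the second principal component of the 80 RNAs, which separated the genotypes, it scored 4.18 at 3 hr, against 6.56 and 6.63 for S80A replicates 2 and 3. At 0 hr the 3 S80A libraries scored 2.86, 3.53 and 4.52. Over all listed genes, S80A replicate 1 was apart on the second component at both times. It scored 16.9 at 3 hr, against 41.3 and 46.7 for S80A replicates 2 and 3, and 16.7 at 0 hr, against 32.7 and 39. In this bulk measurement fewer cells of a type and less RNA per cell cannot be told apart. Of 15 macrophage and monocyte markers, CD14, CD163, FCGR3A and MERTK stood in the tables (4 listed as falling in WT cells and 2 in S80A cells). Of 7 undifferentiated myeloid markers CD34 alone did, rising in both genotypes. By limma at an adjusted p under 0.05, MERTK was higher in S80A cells at both times and differed in its LPS response, and CD163 was lower at 0 hr. CD14, FCGR3A and CD34 were not called. The tables held 0 of 8 T and NK, 0 of 6 erythroid and 0 of 9 stromal, epithelial and endothelial markers. They hold only genes changed by LPS, so a marker outside them may still be expressed. The part of these markers in the results was not tested.

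Of the 80 RNAs, more rose than fell with LPS, in S80A and WT cells alike. In the authors' deposited table for S80A cells 41 rose and 19 fell, which is the selection that defines the set, against 46.2% rising and 30.2% falling (76.4% in all) among all 3281 listed genes. In the table for WT cells 42 rose and 13 fell, against 43.9% and 27.2% (71.2% in all) of all listed genes. Every listed call has a deposited adjusted p below 0.01 and a log2 fold change beyond 1 in size. Of the 35 RNAs in both tables, 26 were rising and 9 falling in each, with 0 in opposite directions. Another 25 stood in the S80A table alone (15 rising, 10 falling) and 20 in the WT table alone (16 rising, 4 falling). By kind, LINC RNAs counted 17 rises and 6 falls in S80A cells and 19 and 7 in WT cells, and antisense RNAs 19 and 12 in S80A cells and 18 and 6 in WT cells. The median log2 fold change of the rising RNAs in the authors' deposited tables was 2.27 in S80A cells and 1.86 in WT cells, beside 2.17 and 2.20 over all rising genes of those tables.

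**Figure D1:**
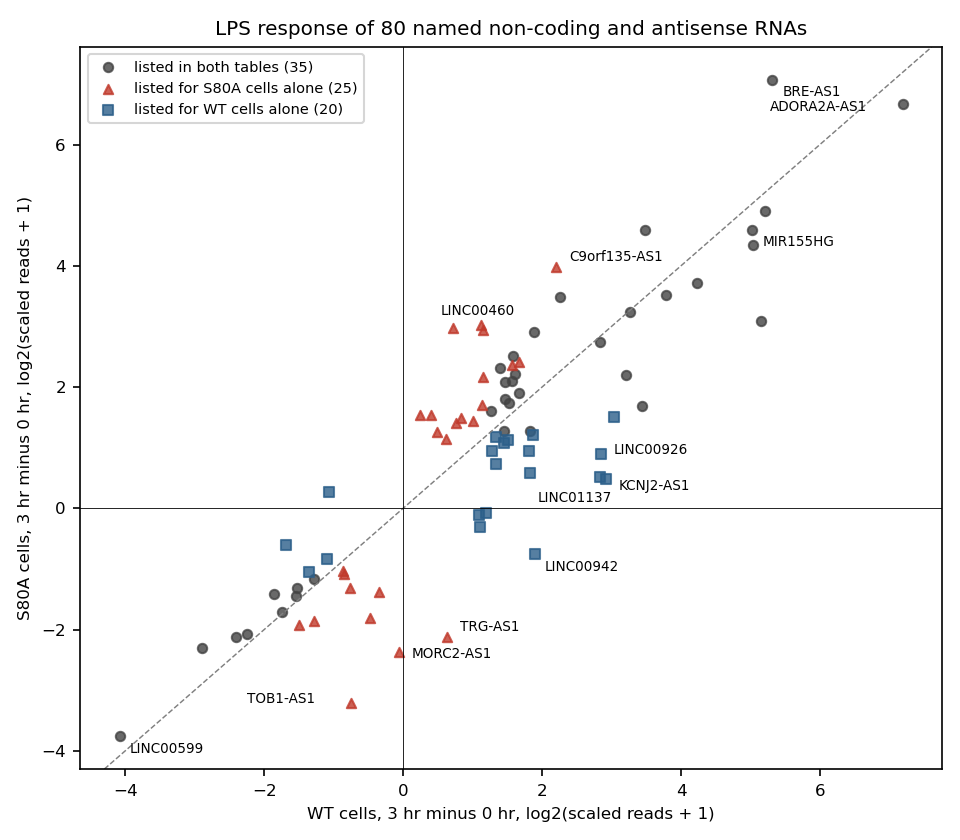
LPS response of the 80 RNAs in S80A cells (vertical axis) against WT cells (horizontal axis), each as the limma estimate of 3 hr minus 0 hr on log2(scaled reads + 1). Symbols give the table or tables an RNA was listed in (35 in both, 25 for S80A cells alone, 20 for WT cells alone), the dashed line marks equal responses, and no RNA listed in both lies in the quadrants of opposite sign.

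A limma fit on log2(scaled reads + 1), given as a description because membership rests on the same contrast, had 48 of the 80 RNAs up and 21 down in S80A cells, beside 50.1% and 35.5% (85.6% in all) of all listed genes. In WT cells it had 52 up and 18 down, beside 53.3% and 38.0% (91.3% in all). Without S80A replicate 1 the S80A counts were 45 and 20, a setting chosen after the data were seen. By that fit 10 of the 15 RNAs that stood as rising in the S80A table alone also rose in WT cells, and 7 of the 16 that did so in the WT table alone also rose in S80A cells. Of the 10 falling RNAs listed in S80A cells alone 5 also fell in WT cells, and of the 4 listed in WT cells alone 2 also fell in S80A cells.

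ADORA2A-AS1, which runs antisense across the gene of the adenosine receptor ADORA2A, had the largest rise in WT cells, and BRE-AS1 in S80A cells, by the log2 fold changes of the authors' deposited tables. ADORA2A-AS1 stood at 176, 86.3 and 119 scaled reads in S80A cells and 251, 131 and 93.1 in WT cells at 3 hr, against 0, 0.776 and 0 in S80A cells and 0 in all 3 WT libraries at 0 hr. The ratio in S80A cells was 414, with an exact 95% counting interval of 73.8 to 16401 on 1 read at 0 hr, and in WT cells it was at least 188-fold higher at 3 hr, taking 3 reads per group as the limit that a count of 0 allows. Intervals and floors here cover counting error only.

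BRE-AS1 (present symbol BABAM2-AS1) rose to 1832, 1025 and 609 scaled reads in S80A cells and 321, 252 and 244 in WT cells at 3 hr, against 7.97, 4.65 and 8.40 in S80A cells and 5.20, 3.22 and 11.3 in WT cells at 0 hr. All 3 S80A libraries lay above the 3 WT libraries at 3 hr, and at 0 hr the genotypes overlapped. The difference at 3 hr was 1.95 ± 0.38 log2 (SE; limma adjusted p = 0.00455). The LPS response itself differed by 1.76 ± 0.62 log2 (limma adjusted p = 0.0718), which missed the threshold of 0.05 and was just past it with a replicate block within genotype (0.0492).

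LINC00346 (present symbol PRECSIT) reached 361, 114 and 94.7 scaled reads in S80A cells and 161, 170.2 and 191 in WT cells at 3 hr, against 3.10 to 6.30 in S80A cells and 1.73 to 5.65 in WT cells at 0 hr. S80A replicate 1 was the high value, and the genotypes overlapped. LINC00515 reached 44.9, 52.9 and 42.0 scaled reads in S80A cells and 18.8, 20.8 and 27.8 in WT cells, against 0 to 1.99 in S80A cells and 0.804 to 1.61 in WT cells at 0 hr. LINC01093 was at 31.4, 17.3 and 13.2 in S80A cells and 36.4, 58.1 and 52.5 in WT cells at 3 hr, against 0.996 to 2.33 in S80A cells and 0 to 1.61 in WT cells at 0 hr. WT libraries were higher than S80A libraries at 3 hr for LINC01093, and lower for LINC00515, in both cases with no overlap. LINC01093 differed by -1.27 ± 0.38 log2 at 3 hr (limma adjusted p = 0.0267; 0.0789 without S80A replicate 2, 0.0784 without S80A replicate 3, 0.0979 without WT replicate 2 and 0.0918 without WT replicate 3). LINC00515 differed by 1.03 ± 0.28 log2 at 3 hr (limma adjusted p = 0.0181; 0.0735 without S80A replicate 2 and 0.0624 without WT replicate 2; 0.0574 in DESeq2 and 0.0567 with all 12 libraries in 1 fit).

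LINC00158, LINC00515 and MIR155HG lie in 1 stretch of chromosome 21 and rose in both genotypes. LINC00515 lies 7602 bases from MIR155HG and LINC00158 130208 bases from it, on the strand opposite to MIR155HG. LINC00158 had no reads in any of the 6 libraries at 0 hr and stood at 23.5, 16.1 and 19.2 scaled reads in S80A cells and 27.0, 27.0 and 43.9 in WT cells at 3 hr. That is at least 21.3-fold higher in S80A cells and at least 39.7-fold higher in WT cells against the floor. S80A libraries lay below WT libraries at 3 hr, while for MIR155HG and LINC00515 they lay above, and the difference for LINC00158 was -0.68 ± 0.32 log2 (limma adjusted p = 0.117). This difference missed the threshold.

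Among the falls, LINC00599 (present symbol MIR124-1HG), the host transcript of the neuronal microRNA miR-124, had the lowest log2 fold change of both authors' deposited tables among the 80. It was at 6.73, 19.6 and 52.8 scaled reads in S80A cells and 0 in all 3 WT libraries at 3 hr, against 139, 289 and 518 in S80A cells and 13.0, 15.3 and 20.2 in WT cells at 0 hr. WT cells were at least 14.9-fold lower at 3 hr than at 0 hr against the floor. CEBPA-AS1 (present symbol CEBPA-DT), which starts beside the gene of the myeloid transcription factor C/EBPα, fell to 20.2, 12.7 and 16.8 in S80A cells and 29.4, 28.0 and 26.8 in WT cells, against 116, 62.8 and 56.7 in S80A cells and 178, 155 and 129 in WT cells at 0 hr. S80A libraries lay below WT libraries at both times, with differences of -0.75 ± 0.30 log2 at 3 hr and -1.03 ± 0.32 at 0 hr, and the limma adjusted p-values of 0.07 and 0.0596 missed the threshold. LINC00920 and LINC00663 fell in both genotypes too, with log2 fold changes of -2.32 and -1.44 in S80A cells and -2.62 and -1.87 in WT cells in the authors' deposited tables. KIF25-AS1 fell with -1.62 in S80A cells and -2.11 in WT cells in the same tables.

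The microRNA host genes did not share 1 pattern. MIR155HG, MIR17HG and MIR22HG rose in both genotypes, MIRLET7BHG was listed as rising in WT cells alone, and MIR600HG as falling in S80A cells alone. MIR155HG stood at 2600.2, 1763 and 1549 scaled reads in S80A cells and 654, 674 and 750.5 in WT cells at 3 hr, against 40.8, 73.7 and 161 in S80A cells and 21.7, 17.7 and 21.8 in WT cells at 0 hr. S80A libraries were above all WT libraries at both times. The difference was 1.47 ± 0.23 log2 at 3 hr (limma adjusted p = 0.00178) and 1.90 ± 0.51 at 0 hr (limma adjusted p = 0.0409). The call at 0 hr was lost with the replicate number as a block (0.0541), and leaving out a library gave 0.108 without S80A replicate 2, 0.0994 without WT replicate 1, 0.121 without WT replicate 2 and 0.109 without WT replicate 3. Its fold of induction did not pass a test of difference, at -0.43 ± 0.54 log2 (limma adjusted p = 0.606).

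MIR22HG had the same order of groups with a tighter spread. It stood at 1108, 766 and 858 scaled reads in S80A cells and 247, 245 and 287 in WT cells at 3 hr, against 186, 185 and 212 in S80A cells and 89.2, 74.0 and 90.3 in WT cells at 0 hr, with no overlap between genotypes at either time. The difference was 1.79 ± 0.21 log2 at 3 hr (limma adjusted p = 0.000652) and 1.19 ± 0.15 at 0 hr (limma adjusted p = 0.00556). Both calls held under every alternative run. WDR81, a coding gene that MIR22HG overlaps on the other strand without shared exon bases, fell in both genotypes, with log2 fold changes of -1.94 in S80A cells and -1.77 in WT cells in the authors' deposited tables.

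MIR17HG stood at 406, 189 and 179.8 scaled reads in S80A cells and 119, 159.9 and 172 in WT cells at 3 hr, against 8.96, 19.4 and 48.3 in S80A cells and 25.1, 20.9 and 51.6 in WT cells at 0 hr. Genotypes overlapped at 0 hr and not at 3 hr, S80A replicate 1 was the highest library at 3 hr and the lowest at 0 hr, and the differences had limma adjusted p-values of 0.139 at 3 hr and 0.575 at 0 hr. MIR600HG was at 32.5, 48.3 and 71.9 in S80A cells and 71.6, 46.7 and 41.8 in WT cells at 3 hr, against 171, 204 and 147 in S80A cells and 77.9, 69.2 and 70.2 in WT cells at 0 hr. The genotypes overlapped at 3 hr and were apart at 0 hr, where S80A cells were higher by 1.24 ± 0.18 log2 (limma adjusted p = 0.00709), under every alternative run. MIRLET7BHG was at 52.7, 77.1 and 56.4 in S80A cells and 32.9, 133 and 93.1 in WT cells at 3 hr, against 17.9 to 35.7 in S80A cells and 23.4 to 32.3 in WT cells at 0 hr, with WT replicate 1 far below the other WT libraries at 3 hr. LINC00899, whose gene lies 9016 bases from MIRLET7BHG on the other strand, was listed as falling in S80A cells.

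**Figure D2:**
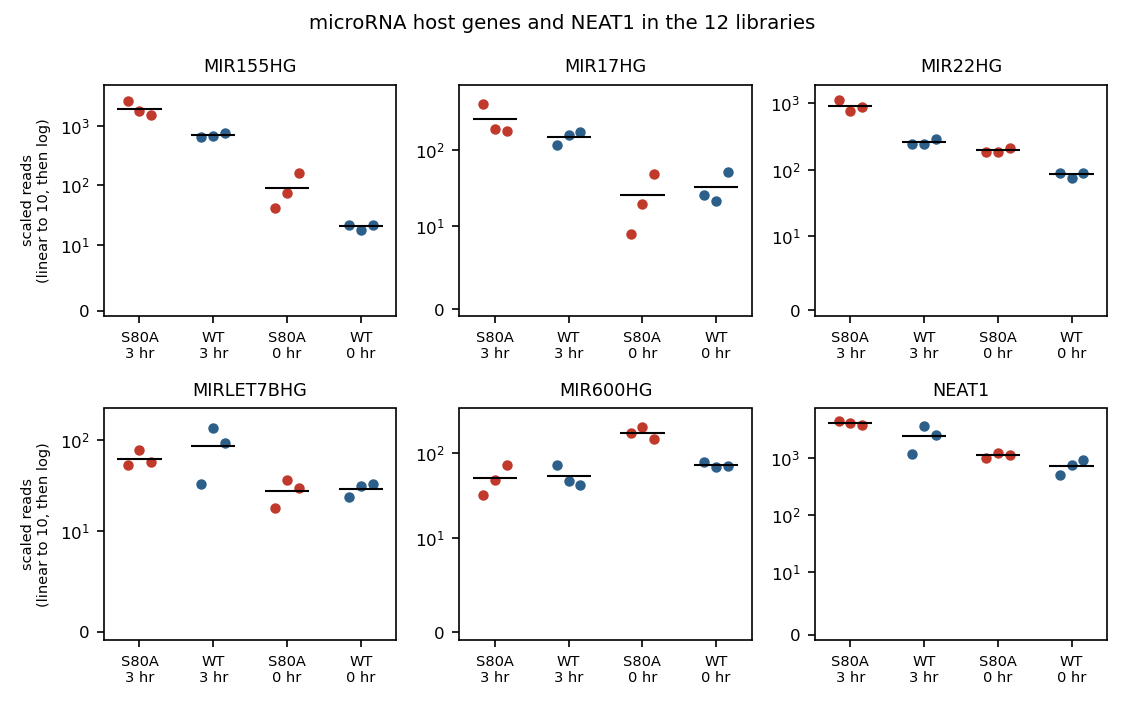
Scaled reads of the 5 microRNA host genes and NEAT1 in each of the 12 libraries (points; bars are group means; the vertical axis is linear to 10 and logarithmic above), with S80A cells in red and WT cells in blue. MIR155HG and MIR22HG are higher in S80A cells at both times, while MIR600HG is higher in S80A cells at 0 hr and overlaps at 3 hr.

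NEAT1, the architectural RNA of nuclear paraspeckles, rose in both genotypes. It stood at 4523, 4275 and 3871 scaled reads in S80A cells and 1211, 3743 and 2607 in WT cells at 3 hr, against 995, 1238 and 1163 in S80A cells and 517, 750.4 and 931 in WT cells at 0 hr. The lowest S80A library lay above the highest WT library at both times. WT replicate 1 was the lowest at 3 hr by a wide margin, and the limma adjusted p-values were 0.0857 at 3 hr and 0.0849 at 0 hr, past the threshold at neither time. Its neighbour MALAT1, a nuclear RNA listed in the S80A table alone, was at 2334 to 3108 scaled reads in S80A cells and 1023 to 1408 in WT cells at 3 hr. MALAT1 is also 1 of 15 signs of RNA quality, of which MALAT1 and NEAT1 alone stood in the tables, and their part in the results was not tested.

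The genotypes differed at both times for a minority of the 80 RNAs. At 3 hr 32 passed (20 higher and 12 lower in S80A cells, 40.0% in all), against 47.9% of all 3281 listed genes (30.1% higher, 17.7% lower), by limma at an adjusted p under 0.05. At 0 hr 18 passed (16 higher and 2 lower, 22.5%), against 31.0% of all listed genes (20.3% higher, 10.7% lower). The 80 RNAs are lower than the listed genes as a whole, and at a like level the shares were closer. With a mean of at least 100 scaled reads, 47.6% of 21 RNAs passed at 3 hr, against 52.0% of listed genes, and 38.1% at 0 hr, against 34.8%. With a mean from 10 to under 100, 36.7% of 49 RNAs passed at 3 hr, against 40.2%, and 20.4% at 0 hr, against 25.9%. With TMM scaling in edgeR the split was 18 higher and 15 lower at 3 hr and 13 and 7 at 0 hr, and in DESeq2 17 and 14, and 13 and 8. Those scalings moved the median difference of all genes by -0.21 log2 at 3 hr, and by -0.23 (TMM) and -0.20 (DESeq2) at 0 hr. The count at 0 hr was 9 without S80A replicate 2, 9 without WT replicate 2, 11 without WT replicate 1 and 11 without WT replicate 3. At 3 hr the 3 S80A libraries lay all above the WT libraries for 29 RNAs (35.7% of all listed genes did) and all below for 16 (23.3%), and at 0 hr for 27 (31.6%) and 7 (17.5%).

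**Figure D3:**
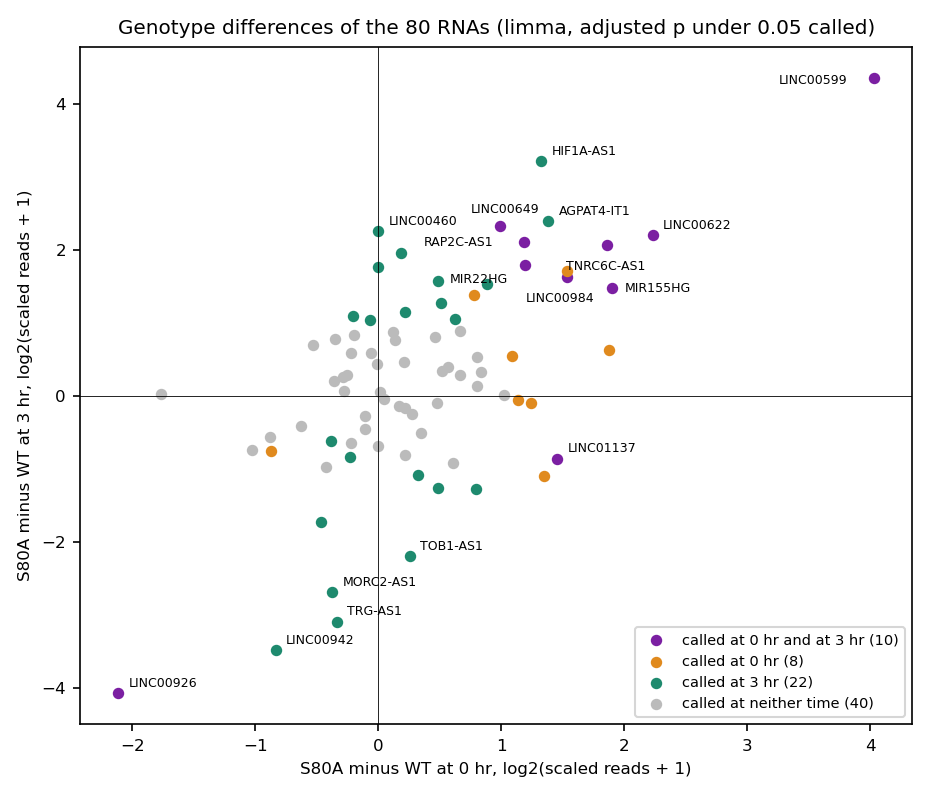
Genotype difference (S80A minus WT, limma on log2(scaled reads + 1)) of the 80 RNAs at 3 hr (vertical axis) and at 0 hr (horizontal axis), coloured by the comparisons in which the limma adjusted p was under 0.05. LINC00599 is at the top right, higher in S80A cells at both times, and LINC00926 at the bottom left, lower at both times. LINC01137 is called in opposite directions at the 2 times.

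LINC00599 showed the largest excess in S80A cells at both times. Its values, given above with the falls, did not overlap between genotypes at either time, although the S80A libraries themselves spanned 6.73 to 52.8 scaled reads at 3 hr and 139 to 518 at 0 hr. At 3 hr S80A cells were at least 23.7-fold higher, since WT cells had no reads. The difference at 0 hr was 4.03 ± 0.51 log2 (limma adjusted p = 0.00551). The response to LPS did not pass a test of difference, at 0.32 ± 0.86 log2 (limma adjusted p = 0.808).

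TNRC6C-AS1, antisense to the gene of a GW182 protein that acts in microRNA silencing, stood at 223, 447 and 472 scaled reads in S80A cells and 86.9, 95.5 and 74.9 in WT cells at 3 hr. At 0 hr it stood at 720.1, 1240.2 and 817 in S80A cells and 238, 262 and 241 in WT cells. The genotypes were apart at both times, by 2.07 ± 0.32 log2 at 3 hr (limma adjusted p = 0.0018) and 1.86 ± 0.22 at 0 hr (limma adjusted p = 0.00472). LINC00984, the coding gene now called INAFM2, stood at 1551, 1429 and 1394 in S80A cells and 499, 419 and 496 in WT cells at 3 hr, against 4367, 3465 and 4127 in S80A cells and 1597, 1236 and 1297 in WT cells at 0 hr. It was listed as falling with LPS in both genotypes and was higher in S80A cells by 1.63 ± 0.17 log2 at 3 hr (limma adjusted p = 0.000532) and 1.54 ± 0.15 at 0 hr (limma adjusted p = 0.0031). The 4 calls of TNRC6C-AS1 and LINC00984 held under every alternative run. TNRC6C itself, with which the RNA shares 1438 exon bases, went the other way at 3 hr, at 101, 104 and 109 in S80A cells and 243, 194 and 208 in WT cells, -1.03 ± 0.20 log2 apart (limma adjusted p = 0.00488). TNRC6C-AS1 also shares exon bases on its own strand with TMC6, the coding gene that RefSeq gives for its name. Its reads therefore cannot be told apart from those of TMC6 mRNA.

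LINC00622 and RAP2C-AS1 were also higher in S80A cells at both times. LINC00622 stood at 101, 27.6 and 52.8 scaled reads in S80A cells and 20.0, 9.34 and 6.42 in WT cells at 3 hr, against 2.99, 5.43 and 6.30 in S80A cells and 0, 0.804 and 0 in WT cells at 0 hr. It differed by 2.20 ± 0.56 log2 at 3 hr (limma adjusted p = 0.014; 0.0507 without WT replicate 2 and 0.0574 without WT replicate 3) and by 2.23 ± 0.34 at 0 hr (limma adjusted p = 0.00888; DESeq2 adjusted p = 0.0556). RAP2C-AS1, antisense to a small GTPase gene, stood at 183, 90.9 and 81.5 in S80A cells and 31.7, 20.8 and 23.6 in WT cells at 3 hr, against 24.9, 17.1 and 23.1 in S80A cells and 9.53, 6.43 and 11.3 in WT cells at 0 hr. Its difference was 2.11 ± 0.37 log2 at 3 hr (limma adjusted p = 0.00278). At 0 hr it was 1.18 ± 0.28 (limma adjusted p = 0.0271), and that call was lost without any 1 of the 6 libraries (0.0512 to 0.0793) and under TMM (0.0761) and DESeq2 (0.124).

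LINC00152, LINC00649, AGPAT4-IT1 and HIF1A-AS1 were higher in S80A cells at 3 hr, and a difference between the times was not called by the limma interaction term (adjusted p = 0.306, 0.0633, 0.342 and 0.263 in that order). With the replicate block LINC00649 had 0.032, and 0.0164 with the block within genotype. LINC00152 (present symbol CYTOR), an RNA raised in many tumours, stood at 566, 1009 and 1227 scaled reads in S80A cells and 275, 319 and 331 in WT cells at 3 hr, against 221, 463 and 312 in S80A cells and 159, 191 and 167 in WT cells at 0 hr. The groups were apart at both times, and the difference of 1.53 ± 0.30 log2 at 3 hr passed (limma adjusted p = 0.00455) while that of 0.88 ± 0.29 at 0 hr missed the threshold (limma adjusted p = 0.0667). LINC00649 stood at 199.6, 453 and 321 in S80A cells and 71.6, 64.4 and 48.2 in WT cells at 3 hr, against 176, 337 and 279 in S80A cells and 109, 138 and 139 in WT cells at 0 hr. It differed by 2.32 ± 0.33 log2 at 3 hr (limma adjusted p = 0.00136) and by 0.99 ± 0.28 at 0 hr (limma adjusted p = 0.0447), and the call at 0 hr was lost without any 1 of the libraries other than S80A replicate 1 (0.105 to 0.124). AGPAT4-IT1, which lies in an intron of an acyltransferase gene, stood at 115, 144 and 132 in S80A cells and 16.4, 31.1 and 26.8 in WT cells at 3 hr, 2.39 ± 0.30 log2 apart (limma adjusted p = 0.00083), and differed by 1.38 ± 0.67 at 0 hr (limma adjusted p = 0.169). AGPAT4 itself was at 1544, 1552 and 1593 in S80A cells and 404, 578 and 506 in WT cells at 3 hr, 1.67 ± 0.19 log2 apart (limma adjusted p = 0.000644), and 1.71 ± 0.37 apart at 0 hr (limma adjusted p = 0.0215). AGPAT4-IT1 lies on the same strand as AGPAT4, so its reads cannot be told apart with certainty from unspliced AGPAT4 RNA. HIF1A-AS1 stood at 24.7, 44.9 and 34.8 in S80A cells and 0, 7.27 and 5.35 in WT cells at 3 hr, 3.22 ± 0.78 log2 apart (limma adjusted p = 0.0113), and differed by 1.33 ± 0.74 at 0 hr (limma adjusted p = 0.223). HIF1A, which encodes the oxygen-regulated factor that drives glycolysis genes in activated macrophages, was 1.64 ± 0.17 log2 higher in S80A cells at 3 hr (limma adjusted p = 0.000442) and 1.13 ± 0.11 higher at 0 hr (limma adjusted p = 0.0032). The pair shares 117 exon bases.

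At 0 hr the calls of KIF25-AS1, MBNL1-AS1, LINC00854, KCNJ2-AS1, LINC00920 and TMCC1-AS1 were lost when single libraries were left out. KIF25-AS1 stood at 59.8, 74.5 and 74.5 scaled reads in S80A cells and 16.5, 23.3 and 32.3 in WT cells, 1.54 ± 0.29 log2 apart (limma adjusted p = 0.0155; 0.0625 without S80A replicate 2 and 0.0578 without WT replicate 2; 0.051 with all 12 libraries in 1 fit). MBNL1-AS1 stood at 816, 583 and 758 in S80A cells and 414, 248 and 329.9 in WT cells (limma adjusted p = 0.0189; 0.0531 without S80A replicate 3 and 0.0665 without WT replicate 3). For LINC00854, the coding gene now called CCDC200, the values were 35.9, 38.0 and 28.3 in S80A cells and 17.3, 13.7 and 15.3 in WT cells (limma adjusted p = 0.0161; 0.0616 without S80A replicate 2, 0.0649 without WT replicate 2 and 0.0656 without WT replicate 3; 0.051 under TMM and 0.0727 in DESeq2). These 3 were higher in S80A cells with no overlap. KCNJ2-AS1 was higher in S80A cells (limma adjusted p = 0.0382) and lost its call without any 1 of the libraries other than S80A replicate 1 (0.0505 to 0.119). LINC00920 was higher in S80A cells (limma adjusted p = 0.0369), and its call was lost without any 1 of the libraries other than S80A replicate 3 (0.0515 to 0.118), with the replicate block (0.0722) and in edgeR and DESeq2 (0.0552 to 0.225), and with all 12 libraries in 1 fit (0.273). TMCC1-AS1 was lower in S80A cells (limma adjusted p = 0.0381), lost its call without any 1 of the libraries other than S80A replicate 1 (0.0798 to 0.122), and had 0.0744 with the replicate block and 0.0646 with all 12 libraries in 1 fit.

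LINC00926 was the RNA with the largest deficit in S80A cells. It stood at 127, 75.9 and 68.3 scaled reads in S80A cells and 1366, 1602 and 1488 in WT cells at 3 hr, against 44.8, 58.9 and 37.8 in S80A cells and 214, 181 and 219 in WT cells at 0 hr. All S80A libraries lay below all WT libraries at both times, S80A cells at 3 hr below WT cells at 0 hr included. The difference was -4.08 ± 0.26 log2 at 3 hr (limma adjusted p = 0.000187) and -2.11 ± 0.22 at 0 hr (limma adjusted p = 0.00366). LINC00926 is known from B cells. Among 5 B cell markers CD79B and PAX5 stood in the tables, and PAX5, a B lineage transcription factor, was at 16.8 to 62.1 scaled reads in S80A cells and 77.5 to 195 in WT cells at 3 hr, against 13.6 to 32.9 in S80A cells and 16.1 to 33.8 in WT cells at 0 hr. CD79B fell in both genotypes, and the part of these markers in the result was not tested. LINC01096 was lower in S80A cells too, at 17.9, 13.8 and 22.8 in S80A cells and 41.1, 76.8 and 73.9 in WT cells at 3 hr, -1.73 ± 0.35 log2 apart (limma adjusted p = 0.00521), while at 0 hr the genotypes overlapped.

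The size of the LPS response differed between genotypes for 9 of the 80 RNAs (11.2%), by the limma interaction term (the change with LPS in S80A cells minus that in WT cells) at an adjusted p under 0.05. The term was positive for 2 and negative for 7, and among all 3281 listed genes 15.5% passed, 7.92% positive and 7.56% negative. A negative term can be a smaller rise in S80A cells, a deeper fall, or a fall in S80A cells alone. TOB1-AS1, MORC2-AS1 and TRG-AS1 were listed as falling in S80A cells alone. In WT cells their group means went from 9.08 scaled reads at 0 hr to 5.10 at 3 hr for TOB1-AS1. They went from 10.4 to 10.2 for MORC2-AS1 and from 111 to 177 for TRG-AS1. With the replicate number as a block 13 passed, these 9 among them, against 22.3% of all listed genes. With a block for each replicate number within each genotype, a setting chosen after the data were seen, 16 passed, against 23.3%. These held 8 of the 9, without C9orf135-AS1 (limma adjusted p = 0.0663), and added BRE-AS1, LINC00649, LINC00996, LINC01061, LINC01093, MBNL1-AS1, MIR600HG and VIM-AS1 (0.0164 to 0.0492). The 9 called without a block all stood in 1 table alone, and that listing already rests on part of this contrast. By limma 0 of the 35 RNAs listed for both genotypes passed over all listed genes, with 4 at an unadjusted p under 0.05, and 0 by edgeR and 1, BRE-AS1, by DESeq2. With the block within genotype BRE-AS1 (limma adjusted p = 0.0492) and LINC01093 (0.0451) passed among these 35. On the log2(value + 1) scale equal folds from unequal low levels give unequal differences, which bears on the low RNAs among the 9, TOB1-AS1, MORC2-AS1, LINC00942, LINC00460 and C9orf135-AS1.

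**Figure D4:**
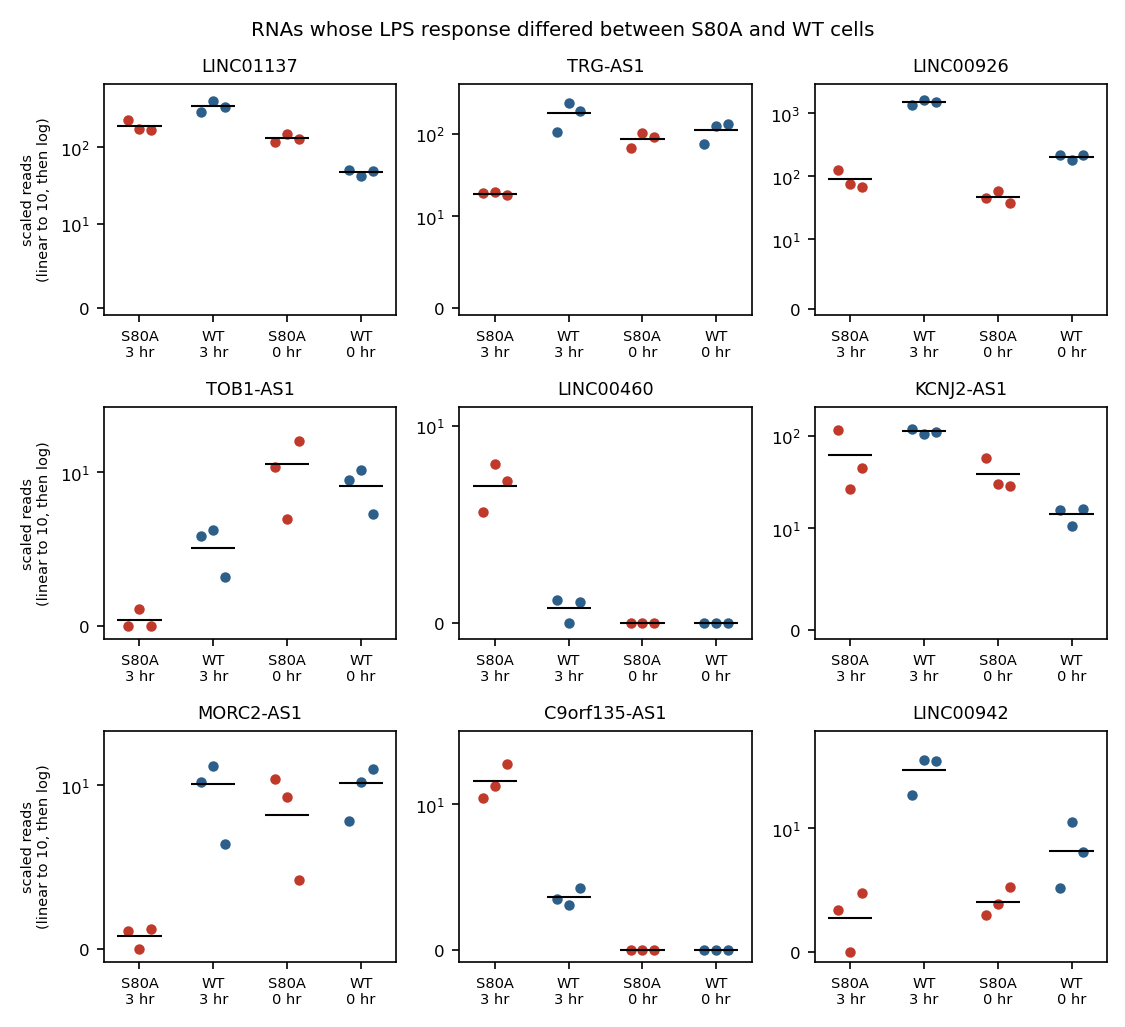
Scaled reads of the 9 RNAs whose LPS response differed between S80A and WT cells, in each of the 12 libraries (points; bars are group means; the vertical axis is linear to 10 and logarithmic above), ordered by p-value from the top left. In LINC00926 the WT libraries at 3 hr stand far above the S80A libraries, whereas LINC00460 and C9orf135-AS1 had no reads at 0 hr.

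LINC01137 (present symbol LITATS1), TRG-AS1 and LINC00926 kept this call under all 21 alternatives run. LINC01137 stood at 228, 174 and 171 scaled reads in S80A cells and 295, 405 and 344 in WT cells at 3 hr, against 119, 152 and 128 in S80A cells and 51.1, 42.6 and 49.2 in WT cells at 0 hr. S80A cells thus had the higher values at 0 hr and the lower ones at 3 hr, without overlap at either time. Its response differed by -2.32 ± 0.30 log2 (limma adjusted p = 0.00106). The difference at 0 hr was 1.46 ± 0.18 log2 (limma adjusted p = 0.00521) and that at 3 hr -0.86 ± 0.22 (limma adjusted p = 0.0149), and the call at 3 hr had 0.0558 without S80A replicate 2, 0.0665 without WT replicate 2 and 0.0591 without WT replicate 3.

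TRG-AS1, antisense RNA of the T cell receptor gamma locus, stood at 19.1, 19.6 and 18.0 scaled reads in S80A cells and 107, 237 and 188 in WT cells at 3 hr, against 66.7, 102 and 91.3 in S80A cells and 76.2, 124 and 132 in WT cells at 0 hr. At 0 hr the genotypes overlapped, and at 3 hr the S80A libraries lay within 2 scaled reads of each other and below every WT library. The response differed by -2.76 ± 0.45 log2 (limma adjusted p = 0.0029), and the genotypes by -3.09 ± 0.33 log2 at 3 hr (limma adjusted p = 0.00054). Of the 8 T and NK markers 0 stood in the tables. These hold only genes changed by LPS, so whether those markers were expressed cannot be told. For LINC00926, with the values above, the response differed by -1.96 ± 0.36 log2 (limma adjusted p = 0.00477).

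TOB1-AS1 had a deeper fall in S80A cells than in WT cells. MORC2-AS1 fell in S80A cells, while its WT libraries at 3 hr overlapped those at 0 hr. KCNJ2-AS1 and LINC00942 rose in WT cells, and neither changed past the threshold in S80A cells. There the mean of LINC00942 went from 4.04 scaled reads at 0 hr to 2.72 at 3 hr. TOB1-AS1 stood at 0, 1.15 and 0 scaled reads in S80A cells and 5.87, 6.23 and 3.21 in WT cells at 3 hr, against 11.0, 6.98 and 16.8 in S80A cells and 9.53, 10.5 and 7.26 in WT cells at 0 hr. WT cells at 3 hr had 14 reads and S80A cells 1, a ratio of 13.2 (exact 95% counting interval 2.01 to 559). Its response differed by -2.46 ± 0.62 log2 (limma adjusted p = 0.022; 0.0612 without WT replicate 3 at 0 hr and 0.0565 without WT replicate 2 at 3 hr). MORC2-AS1 stood at 1.12, 0 and 1.20 in S80A cells and 10.6, 13.5 and 6.42 in WT cells at 3 hr, against 11.0, 9.31 and 4.20 in S80A cells and 7.79, 10.5 and 12.9 in WT cells at 0 hr. Its response differed by -2.31 ± 0.65 log2 (limma adjusted p = 0.0324), and the call was lost without S80A replicate 1 or 2 or any WT library at 0 hr, and without S80A replicate 2 or WT replicate 1 or 2 at 3 hr (0.0556 to 0.0834). DESeq2 gave 0.0538 and a pseudocount of 5 0.0578.

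KCNJ2-AS1 stood at 115, 26.5 and 44.4 scaled reads in S80A cells and 119.8, 104 and 111 in WT cells at 3 hr, against 57.8, 30.2 and 28.3 in S80A cells and 15.6, 10.5 and 16.1 in WT cells at 0 hr. S80A replicate 1 was near the WT level at 3 hr and the other S80A libraries were lower. Its response differed by -2.45 ± 0.65 log2 (limma adjusted p = 0.0254; 0.0626 without WT replicate 2 at 0 hr, 0.0533 without S80A replicate 2 at 3 hr, 0.0511 without S80A replicate 3 at 3 hr, 0.0538 without WT replicate 2 at 3 hr and 0.0549 without WT replicate 3 at 3 hr). LINC00942 stood at 3.36, 0 and 4.80 in S80A cells and 20.0, 40.5 and 39.6 in WT cells at 3 hr, against 2.99 to 5.25 in S80A cells and 5.20 to 11.3 in WT cells at 0 hr. Its response differed by -2.65 ± 0.83 log2 (limma adjusted p = 0.049), and the call was lost without any library at 0 hr other than S80A replicate 1, and without S80A replicate 2 or WT replicate 2 or 3 at 3 hr (0.0658 to 0.109). With a pseudocount of 0.5 (0.072), over genes with a mean of at least 10 (0.0584), by edgeR with the authors' size factors (0.0784) or TMM (0.0758) and by DESeq2 (0.0535) it was not called. WNT5B, a Wnt ligand gene 25467 bases away on the same strand, was at 4.49, 11.5 and 18.0 in S80A cells and 45.8, 70.6 and 69.6 in WT cells at 3 hr, and its response differed by -3.61 ± 0.70 log2 (limma adjusted p = 0.00639).

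LINC00460 and C9orf135-AS1 (present symbol CFAP95-DT) had the larger response in S80A cells, and both had no reads in any library at 0 hr. LINC00460 stood at 5.61, 8.05 and 7.19 scaled reads in S80A cells and 1.17, 0 and 1.07 in WT cells at 3 hr, which is 18 reads against 2 and a ratio of 9.53 (exact 95% counting interval 2.28 to 84.7). C9orf135-AS1 stood at 11.2, 13.8 and 20.4 in S80A cells and 3.52, 3.11 and 4.28 in WT cells at 3 hr, at least 16.3-fold and at least 4.41-fold above 0 hr against the floor. With all values at 0 hr at 0, the interaction term of 2.26 log2 for LINC00460 (limma adjusted p = 0.0254) and 1.77 for C9orf135-AS1 (0.0385) equals the difference at 3 hr, which had limma adjusted p-values of 0.00753 and 0.00695. Neither interaction call was made by edgeR, with an adjusted p of 1.00 for each. LINC00460 lost its call without S80A replicate 2 or WT replicate 2 at either time and without WT replicate 1 or 3 at 0 hr (0.0527 to 0.0613). C9orf135-AS1 lost its call without any 1 library other than S80A replicate 3 at 0 hr and S80A replicate 1 at 3 hr (0.053 to 0.0846), and with a pseudocount of 0.5 (0.0638).

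RNAs and the coding genes beside them mostly moved together under LPS. Of the 76 placed RNAs, 41 (53.9%) had a listed protein-coding gene within 100 kb, against 49.1% of the other 2966 placed listed genes. In 50 of the 61 such pairs (82.0%) both went the same way in the authors' deposited tables and in 8 they went opposite ways, and among 1133 pairs made in the same way from other listed genes 69.3% went the same way. Without shared exon bases 36 of 46 pairs went the same way. For 14 antisense or intronic RNAs the gene named in the symbol was listed itself, and all 14 pairs went the same way. Of these RNAs, CEBPA-AS1, JHDM1D-AS1, USP12-AS2 and AGPAT4-IT1 share no exon bases with that gene. AGPAT4-IT1 lies inside AGPAT4 on the same strand. The others share 63 (RAP2C-AS1) to 11381 (TTN-AS1) exon bases, so their reads and those of the partner cannot be told apart with certainty.

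**Figure D5:**
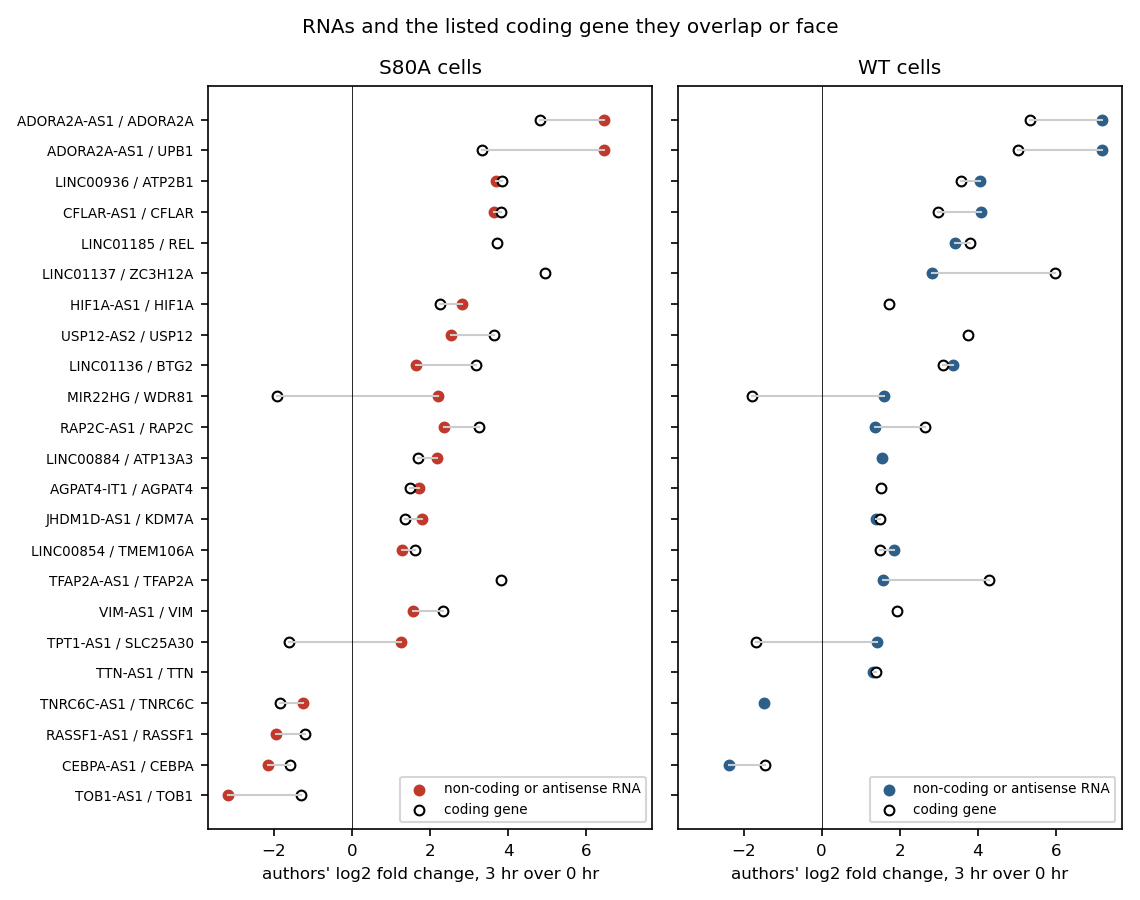
The authors' log2 fold change (3 hr over 0 hr) of RNAs (filled points) and of the listed coding gene they overlap or face on the other strand within 1 kb, or lie inside as an intronic RNA (open points), in S80A cells (left) and WT cells (right). A missing point was not listed in that genotype's table. MIR22HG with WDR81 and TPT1-AS1 with SLC25A30 are the pairs in which the RNA rose and the coding gene fell.

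ADORA2A rose beside ADORA2A-AS1, with log2 fold changes of 4.82 in S80A cells and 5.33 in WT cells, and so did UPB1, which the RNA also overlaps (3.33 and 5.04), in the authors' deposited tables. The antisense RNA shares 285 exon bases with ADORA2A and 385 with UPB1. CFLAR, which encodes the caspase-8 inhibitor c-FLIP, rose with CFLAR-AS1, 3.81 and 2.97 beside 3.63 and 4.09 in S80A and WT cells in the authors' deposited tables, and the pair shares 777 exon bases. CEBPA fell with CEBPA-AS1, with log2 fold changes of -1.58 beside -2.15 in S80A cells and -1.45 beside -2.39 in WT cells in the same tables. CEBPA and its neighbour lie 293 bases apart and share no exon bases. JHDM1D-AS1 (present symbol KDM7A-DT) lies 149 bases from KDM7A, a histone demethylase gene, and USP12-AS2 363 bases from USP12, a deubiquitinase gene, and each rose in S80A cells with its partner. RASSF1-AS1 and TOB1-AS1 fell in S80A cells with RASSF1 and TOB1, both growth-restraining genes.

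LINC01137 and ZC3H12A shared more than the direction. ZC3H12A encodes Regnase-1, an RNase that removes cytokine mRNAs, and lies 141 bases from LINC01137 on the other strand, with no shared exon bases. It stood at 11772, 8310.5 and 7897 scaled reads in S80A cells and 14552, 13756 and 12752 in WT cells at 3 hr, against 247, 306 and 325 in S80A cells and 193, 199 and 229.9 in WT cells at 0 hr. The order of the genotypes was the same as for LINC01137 at both times, S80A above WT at 0 hr and below at 3 hr. For ZC3H12A the difference of 0.49 ± 0.15 log2 at 0 hr missed the threshold (limma adjusted p = 0.0611). That of -0.57 ± 0.19 at 3 hr passed for ZC3H12A (limma adjusted p = 0.0415). Its response differed by -1.06 ± 0.26 log2 (limma adjusted p = 0.0183), against -2.32 for LINC01137. LINC01136 (BTG2-DT) lies 182 bases from BTG2, an antiproliferative gene, and stood at 11.2, 18.4 and 18.0 in S80A cells and 41.1, 38.4 and 36.4 in WT cells at 3 hr, -1.26 ± 0.30 log2 apart (limma adjusted p = 0.0113). BTG2 itself differed by 0.46 ± 0.35 log2 at 3 hr (limma adjusted p = 0.31), so the neighbours did not share a called genotype difference. LINC00936 (ATP2B1-AS1) rose with ATP2B1, a plasma membrane calcium pump gene, with which it shares 82 exon bases, with log2 fold changes of 3.70 and 4.05 beside 3.85 and 3.58 in S80A and WT cells in the authors' deposited tables.

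LINC01185 (REL-DT) lies 207 bases from REL, which encodes the NF-κB subunit c-Rel, and was low: 4.49, 5.75 and 1.20 scaled reads in S80A cells and 9.40, 6.23 and 6.42 in WT cells at 3 hr, against 0 to 0.996 in S80A cells and 0 in all 3 WT libraries at 0 hr. The promoter window of LINC01185 holds a match to the NF-κB consensus. It is shown with those of ASH1L-AS1, which rose in both genotypes, and of TRG-AS1, the only RNA listed as falling with such a match. TRG-AS1 was listed as falling in S80A cells alone. Windows run from 250 bases before to 50 after the RefSeq start, on GRCh38.p14, 5′ to 3′ on the strand of the RNA, and capitals mark matches to the NF-κB consensus searched on both strands, with overlapping matches joined.
LINC01185, chr2:60881265-60881564, minus strand: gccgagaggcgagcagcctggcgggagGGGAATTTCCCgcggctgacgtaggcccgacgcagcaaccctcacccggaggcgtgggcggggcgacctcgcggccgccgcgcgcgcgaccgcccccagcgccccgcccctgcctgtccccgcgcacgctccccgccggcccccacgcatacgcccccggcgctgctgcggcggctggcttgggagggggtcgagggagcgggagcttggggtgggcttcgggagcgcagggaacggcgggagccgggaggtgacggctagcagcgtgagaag
ASH1L-AS1, chr1:155561792-155562091, plus strand: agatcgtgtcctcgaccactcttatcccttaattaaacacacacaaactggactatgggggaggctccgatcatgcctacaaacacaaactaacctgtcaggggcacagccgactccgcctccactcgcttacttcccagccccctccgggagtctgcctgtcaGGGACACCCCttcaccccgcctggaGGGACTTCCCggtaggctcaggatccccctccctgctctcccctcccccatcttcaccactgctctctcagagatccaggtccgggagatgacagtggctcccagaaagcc
TRG-AS1, chr7:38341171-38341470, plus strand: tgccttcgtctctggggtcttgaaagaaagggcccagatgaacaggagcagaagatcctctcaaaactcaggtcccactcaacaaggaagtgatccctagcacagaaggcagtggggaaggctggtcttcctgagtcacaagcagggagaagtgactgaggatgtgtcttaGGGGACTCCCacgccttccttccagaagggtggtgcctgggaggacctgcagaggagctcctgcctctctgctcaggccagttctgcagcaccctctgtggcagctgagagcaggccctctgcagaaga

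Such matches were uncommon among the 80. A promoter window was at hand for 65 RNAs, and 6 of them (9.23%) held an NF-κB match, against 5.72% of all 27305 windows: ASH1L-AS1, C1RL-AS1, LINC01185, LPP-AS2, TRG-AS1 and ZBTB11-AS1. By the direction listed in either of the authors' deposited tables, these were 5 of 46 rising and 1 of 19 falling RNAs. The AP-1 letters TGACTCA stood in 6 of 65 windows (4.92% of all windows), MIR155HG, LINC00152, LINC00346 and LINC00460 among them. TGACGTCA stood in 1 (1.98% of all windows). A match is a description of these letters, and a window without one says nothing of the factor.

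Of 37 long non-coding RNAs linked to NF-κB or LPS in earlier work, 11 stood in the tables, and 10 rose in S80A cells and 9 in WT cells, with 0 falling, in the authors' deposited tables, beside 46.2% and 43.9% of all listed genes rising, and a place in a table already requires a change. The count includes LINC00341 under SYNE3, the coding gene that RefSeq gives for that name. By limma 5 of the 11 were higher in S80A cells at 3 hr (MIR155HG, MIR22HG, LINC00152, LUCAT1 and MALAT1) and 1, SYNE3, was lower, beside 30.1% and 17.7% of all listed genes. At 0 hr 3 were higher (MIR155HG, MIR22HG and LUCAT1) and 2 lower (SNHG15 and SYNE3), beside 20.3% and 10.7%. LUCAT1, an RNA that restrains interferon-stimulated genes, was at 507 to 554 scaled reads in S80A cells and 139 to 161 in WT cells at 3 hr. The other 26 do not stand in the tables and were not analysed here.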

How the data were processed

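Poly(A) RNA of 12 THP-1 libraries was made with a stranded kit and sequenced single-end, per the labels' protocols. Tools named without version or role in the submitters' processing notes are HISAT, HTSeq, StringTie, Cuffdiff, DESeq2 and FastQC, with the build GRCh38. The authors deposited 2 tables of genes changed by LPS, with a log2 fold change, p-values and adjusted p-values, and for each of the 12 libraries a signal, which is the read count divided by 1 size factor per library. Listed genes all lie below 0.01 in the authors' adjusted p and beyond 1 in the size of the log2 fold change, and genes outside these tables were not analysed here. Whole reads could be recovered from these values in 100% of entries (within 0.01), with size factors of 0.834 to 1.29.

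The tables were joined on the symbol and 80 members were taken by their names. Members and lists were chosen with earlier results of these data known. Genotypes were compared on log2(value + 1) with limma 3.58.1 in R 4.3.3, with Benjamini-Hochberg adjustment over all 3281 listed genes and a threshold of 0.05, on 6 libraries per time and on 12 for the interaction. Folds of low genes are understated on this scale. Alternatives were edgeR 4.0.16 and DESeq2 1.42.0 on the recovered counts, other pseudocounts (0.5 and 5), a minimum mean of 10, all 12 libraries in 1 fit, a replicate block, and leaving out each library. The same-number libraries of both genotypes deviated together at 0 hr (correlations 0.188, 0.245 and 0.259). So did the same-number libraries of both times (0.196 to 0.299 within S80A cells, 0.153 to 0.343 within WT cells). WT replicate 3 at 3 hr correlated about as well with WT replicate 2 at 0 hr (0.156) as with its own number (0.153). The labels give the replicate numbers but not what they stand for, so pairing is read from these correlations alone. The main fits had no block, and fits with a block are given beside them. Fits were tested on simulated data. Places are from GENCODE release 29 on GRCh38, present symbols and sequences from RefSeq GRCh38.p14. Promoter windows were searched for motifs on both strands. Genes were named by rule: at most 15 called members per comparison by smallest p, the 5 largest authors' changes per direction and genotype among members with a mean of at least 10, NEAT1 and the host genes, and at most 10 listed sense partners. Other names were chosen after their values were seen.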

Additional observations from a re-analysis of the deposited data

Results flagged for a closer look

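The LPS response differed between S80A and WT cells for 9 RNAs, by the interaction term of the limma fit across all listed genes, as S80A minus WT on the log2(value + 1) scale. The term was negative, at -2.32 for LINC01137, -2.76 for TRG-AS1, -1.96 for LINC00926, -2.46 for TOB1-AS1, -2.45 for KCNJ2-AS1, -2.31 for MORC2-AS1 and -2.65 for LINC00942. It was positive, at 2.26 for LINC00460 and 1.77 for C9orf135-AS1.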

How the results depend on the processing

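The count of RNAs that differed between genotypes was 18 at 0 hr, with a range of 9 to 20 when single libraries were left out, and 32 at 3 hr, with a range of 24 to 40. For the LPS response it was 9, with a range of 3 to 12 when single libraries were left out, and 13 without S80A replicate 1 at both times. It was 4 over genes with a mean of at least 10 scaled reads, and 0 over genes in both tables. The first of these fits left out LINC00460, C9orf135-AS1, TOB1-AS1 and MORC2-AS1 before testing, and LINC00942 lost its call (limma adjusted p = 0.0584). The second held none of the 9, which all stood in 1 table alone, so it could not test them. A pseudocount of 0.5 or 5 gave 17 or 19 at 0 hr, 31 or 32 at 3 hr, and 7 or 13 for the response. Kept under every alternative run were 7 of 18 calls at 0 hr, 22 of 32 at 3 hr and 3 of 9 for the response. Over all alternatives, 722 of 879 values of single called RNAs kept their call, 157 lost it and 0 changed direction. The causes were not tested, and low counts limit the RNAs under 10 scaled reads.

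With the replicate number as a block, 18 RNAs were called at 0 hr, of which 14 were among those called without it, and MIR155HG (0.0541), LINC00920 (0.0722), TMCC1-AS1 (0.0744) and VAV3-AS1 (0.100) lost their call by limma adjusted p. At 3 hr the block gave 30 calls (19 higher and 11 lower in S80A cells) and for the response 13 (4 positive and 9 negative terms), which include all 9 called without it. A replicate block within genotype, added after the data were seen, gave 16 for the response (5 positive and 11 negative terms), 8 of them called without it. Between genotypes at 3 hr the same-number correlations were 0.153, 0.196 and 0.064. Each S80A sample correlated best with its own number there too. WT replicate 3 correlated better with S80A replicate 2 (0.147) than with S80A replicate 3 (0.064). The labels do not say whether those libraries were paired.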
